A study of Mus musculus with 18 samples.

Results

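The genes described here are the nuclear-encoded subunits of oxidative phosphorylation (OXPHOS) in NIH3T3 mouse fibroblasts under heat shock (HS) or tunicamycin (Tu). They were taken by name, as every gene symbol that starts with Ndufa, Ndufb, Ndufc, Ndufs, Ndufv, Uqcr, Cox4 to Cox8 or Atp5, with the Ndufaf assembly factors left out. This gave 82 of the 20207 genes listed in each sample, of which 36 belong to complex I, 7 to complex III, 19 to complex IV and 16 to complex V. The other 4 carry a matching symbol without being an established subunit, namely Cox4nb (a neighbour of Cox4i1 that encodes a subunit of an endoplasmic reticulum membrane complex), Atp5s, Atp5sl and Ndufa4l2. Ndufa4 was counted with complex IV, where its protein resides.

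The cells stably expressed DD-GFP, a destabilizing domain fused to superfolder GFP, and were sorted for high fluorescence. The ligand Shield-1, which stabilizes the folded form of the domain, stayed in the medium of every group, so the controls carry the same transgene and ligand. Poly(A) RNA was sequenced from 6 groups of 3 samples, which were untreated controls at 0 min, cells held at raised temperature for 45 or 135 min, and cells given tunicamycin for 45, 135 or 405 min. Tunicamycin blocks N-linked glycosylation and so burdens protein folding in the endoplasmic reticulum. The labels number the replicates without saying whether they were separate cultures, so p-values measure the spread between these samples, which may be technical.

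Complex I takes electrons from NADH, complex III passes them to cytochrome c, complex IV hands them to oxygen, and complex V uses the resulting proton gradient to make ATP. Each complex joins a core that does the chemistry with accessory subunits, and for complexes I, III, IV and V a few core subunits are made from mitochondrial DNA while the rest come from nuclear genes such as these. Fibroblast lines in rich medium make much of their ATP by glycolysis, and several complex IV subunits exist as a form found in most tissues and another found mainly in heart and skeletal muscle.

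Of the 82 genes, 76 were tested because none of the 18 samples had a count of 0 for them. The untested 6 were the tissue-restricted complex IV forms Cox4i2, Cox6b2, Cox7b2, Cox8b and Cox8c, the last at 0 reads in all 18 samples, and Atp5l2, which lies inside Atp5l. Reads counted on genes ranged from 33415592 to 66478268 per sample, so that 3 reads correspond to 0.0397 to 0.0821 CPM (counts scaled to library size, here by TMM over all samples), a limit that covers counting error only. All 10 fibroblast markers were expressed at 41.4 RPKM or more in control cells, whereas the muscle genes Myh1, Myh4, Ckm and Myh6 stayed at 0.0282 RPKM or less in every sample. The HS genes Hspa1b, Hsph1 and Dnajb1 rose at 135 min of HS and the tunicamycin genes Hspa5, Ddit3 and Herpud1 rose at 405 min, each in edgeR's quasi-likelihood test. The latter 3 also rose at 135 min of HS. Of the tunicamycin genes, 2 were called higher at 45 min of Tu and 0 at 135 min, where log2 fold changes ran from -0.72 to 1.54. At 45 min of HS, 0 of the 3 HS genes were called, at log2 fold changes of 1.10 to 4.99 without overlap with the controls. The counts of 0 calls given below for 45 min of HS and 135 min of Tu thus come from tests that called none of these genes either. In 4 libraries, levels rose with transcript GC content, and these are called the libraries that follow GC content below. Their levels relative to the mean of all samples correlated with GC at a Spearman's rho of 0.52 to 0.59 over 12431 genes, against -0.59 to 0.14 in the other 14 libraries. They were replicates 1 and 2 of HS at 45 min, replicate 2 of HS at 135 min and replicate 1 of Tu at 135 min. In all 4, Cox7a2, Ndufa4, Ndufa9, Atp5c1 and Uqcrc2 lay below every other library, and Ndufb7 and Uqcrc1 above. Comparisons that use these libraries are therefore given with and without them, and their part in the remaining differences was not tested. Other libraries ran the opposite way about as strongly. Their rho was -0.59 and -0.48 in Tu replicates 1 and 2 at 45 min, and -0.54 in both control replicates 2 and 3. Leaving out the 4 libraries does not remove these differences.

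Promoter sequence was available for 66 of the 82 genes, as RefSeq windows on GRCm38.p6 that reach from 250 bases before to 50 bases after the start of the gene. Among the genes with no window at hand were Ndufa2, Ndufb9, Ndufs1, Uqcrb, Uqcrc2, Uqcrq, Cox4i1, Cox4i2, Cox6a2, Cox6c, Cox8c, Atp5a1, Atp5l2, Cox4nb and Ndufa4l2. The windows were searched on both strands for the letters of 3 binding motifs, none of which contains another. The motif of NRF1, a regulator of respiratory genes, was taken as the letters in capitals in the sequences printed here, with any base at the fifth position. It was present in 15 of 66 windows (22.7%), against 5.19% of the 27025 windows of all genes and 11.4% of the 10007 windows of genes tested. The letters of YY1 (AANATGGC) were found in 18 windows (27.3%), against 6.96% of all and 9.94% of tested genes. The ETS letters (CCGGAAGT), which GABP binds, occurred in 5 windows (7.58%), against 4.31% and 8.97%. By complex, the NRF1 letters were in 6 of 14 windows of complex V and 7 of 32 of complex I, and the YY1 letters were in 12 of 32 windows of complex I and 1 of 14 of complex IV. A match describes the sequence and is no evidence of binding. The windows of the genes Atp5g1, Atp5g2 and Atp5g3 are shown because these encode the same mature protein, the c subunit of the proton-driven ring of ATP synthase, while their transcripts differed in level, as described with complex V. Capitals mark the NRF1 letters, which are absent from the window of Atp5g1.
Atp5g1, chr11:96075582-96075881, minus strand: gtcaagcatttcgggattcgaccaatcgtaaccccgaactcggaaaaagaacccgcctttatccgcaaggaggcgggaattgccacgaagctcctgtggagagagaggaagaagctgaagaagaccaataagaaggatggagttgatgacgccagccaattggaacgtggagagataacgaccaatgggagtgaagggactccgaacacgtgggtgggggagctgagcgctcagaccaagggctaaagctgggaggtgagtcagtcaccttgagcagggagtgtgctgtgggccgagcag
Atp5g2, chr15:102670998-102671297, minus strand: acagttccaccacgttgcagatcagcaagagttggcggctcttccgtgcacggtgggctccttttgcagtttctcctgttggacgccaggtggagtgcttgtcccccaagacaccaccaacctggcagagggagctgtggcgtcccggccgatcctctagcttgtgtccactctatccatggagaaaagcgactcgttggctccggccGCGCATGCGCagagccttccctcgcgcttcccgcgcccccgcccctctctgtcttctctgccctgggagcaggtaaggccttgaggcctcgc
Atp5g3, chr2:73911277-73911576, minus strand: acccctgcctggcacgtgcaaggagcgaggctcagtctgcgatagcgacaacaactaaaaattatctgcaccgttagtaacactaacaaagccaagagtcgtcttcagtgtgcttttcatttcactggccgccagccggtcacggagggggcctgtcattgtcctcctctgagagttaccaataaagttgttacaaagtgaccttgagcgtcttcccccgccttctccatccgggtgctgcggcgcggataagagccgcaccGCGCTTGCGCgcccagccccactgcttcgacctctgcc

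In the window of Atp5g2 the match lies before the start of the gene, and in that of Atp5g3 just after it.

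In control cells these transcripts were abundant. Their median was 108 RPKM, a length-scaled level that allows genes to be compared, against 6.65 RPKM over the 12731 genes tested. Of the 76 genes, 70 lay above that overall median and 51 within the top 10% of genes. The median was lowest in complex I (76.7 RPKM) and higher from complex III (134 RPKM) over complex IV (171 RPKM) to complex V (189 RPKM), and within every complex the levels spanned more than an order of magnitude. Atp5b, the catalytic beta subunit of ATP synthase, was highest at 941 ± 177 RPKM (SD, n = 3). The leading genes of the other complexes were Cox6a1 (complex IV, 705 ± 146 RPKM, SD, n = 3), Ndufa12 (complex I, 323 ± 25.1 RPKM) and Uqcrq (complex III, 299 ± 17.0 RPKM). The lowest tested genes of the 4 complexes were Cox7a1 (complex IV, 0.270 ± 0.0606 RPKM), a heart and muscle form, Ndufs5 (complex I, 2.79 ± 1.67 RPKM), Atp5g1 (complex V, 22.0 ± 4.11 RPKM) and Uqcrc2 (complex III, 28.0 ± 8.22 RPKM). Replicate error was uneven, with a median coefficient of variation of 17.96% in the controls and 4 genes above 50%, namely Ndufb5, Ndufs5, Atp5l and Uqcrb. Together the 82 genes took 2.65% to 2.81% of all RPKM in the controls and 2.27% to 2.81% over all samples. In bulk RNA of this kind, fewer cells of a type and less RNA per cell cannot be told apart.

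**Figure D1:**
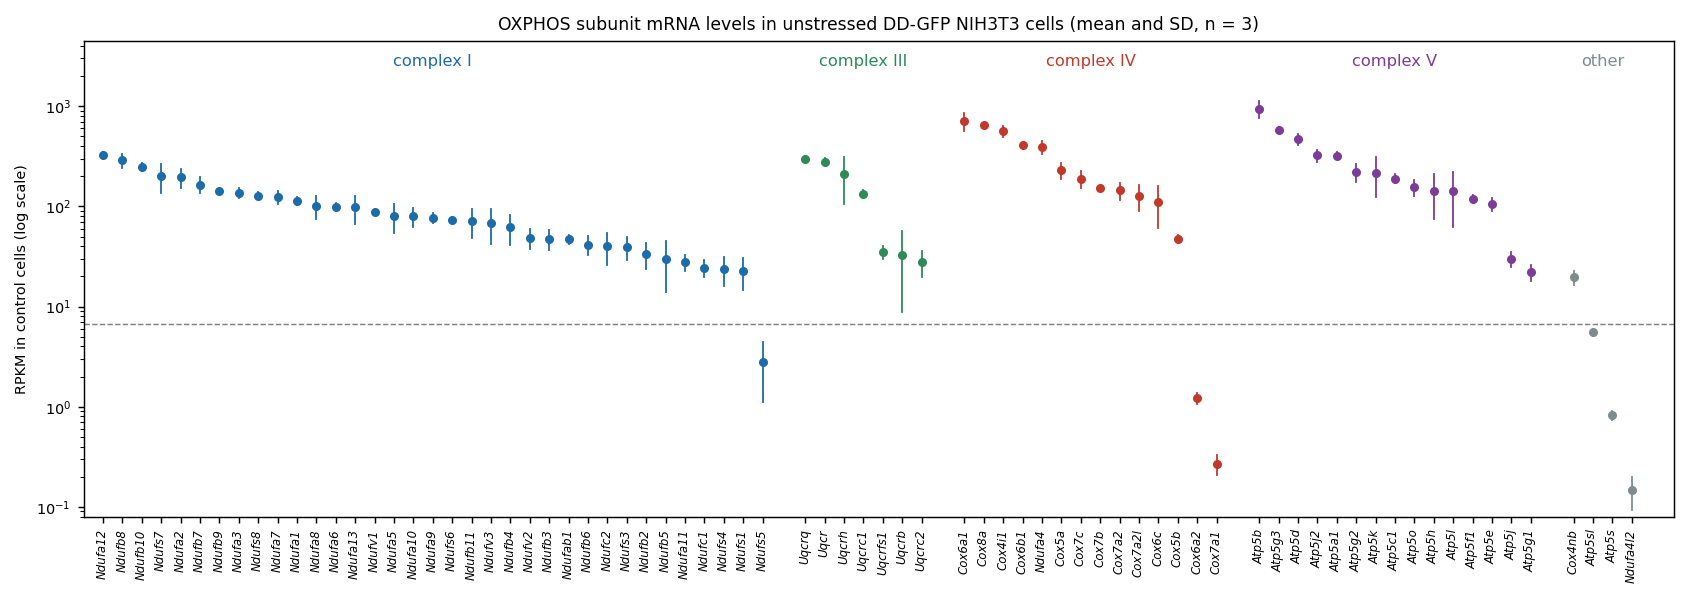
Level of 75 tested genes in the 3 control samples in RPKM on a log axis, ordered within complexes, with points for means, vertical lines for SD (cut off at the low end where the SD reaches the mean) and a dashed line for the median of all genes tested (6.65 RPKM). All genes shown but Ndufs5, Cox6a2, Cox7a1, Atp5sl, Atp5s and Ndufa4l2 lie above the dashed line.

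At 45 min of tunicamycin the median OXPHOS transcript lay below its control level, and in every complex the median fold change was below 0. The median log2 fold change of the 76 genes was -0.37, against -0.00 over all genes, and 64 of the 76 had a value below 0. The quasi-likelihood test of edgeR, adjusted by Benjamini-Hochberg over all genes, called 14 genes (18.4%, against 6.17% of all genes). Of these, 12 fell (15.8%, against 2.17% of all genes) and 2 rose (2.63%, against 4.01%). The falls comprised 6 of 14 genes of complex IV, 3 of 36 of complex I, 1 of 7 of complex III and 2 of 15 of complex V. Complex IV did not stand out by other measures. The median log2 fold change was -0.51 in complex III, -0.45 in complex V, -0.36 in complex IV and -0.23 in complex I. At an unadjusted p under 0.05 in edgeR, 9 genes were lower in complex V, 7 in complex IV, 9 in complex I and 3 in complex III, against 11.5% of all genes. Relative to the mean of the controls, the median gene stood at -0.43, -0.37 and -0.32 on the log2 scale in the 3 Tu samples and at -0.10, 0.03 and 0.04 in the 3 controls, so every Tu sample lay below every control. The number of calls depended on which libraries entered. Leaving out 1 sample at a time left 0 to 32 falls, with 32 without control replicate 1 (42.1%, against 8.7% of all genes in that fit). There were 0 or 1 without any other sample, and in those fits 0.0236% to 0.542% of all genes fell. The median stayed between -0.35 and -0.30 whichever sample was left out. Each of the 12 falls was lost in 5 (Cox6b1) to 9 (Cox7b) of 16 alternative or reduced fits.

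**Figure D2:**
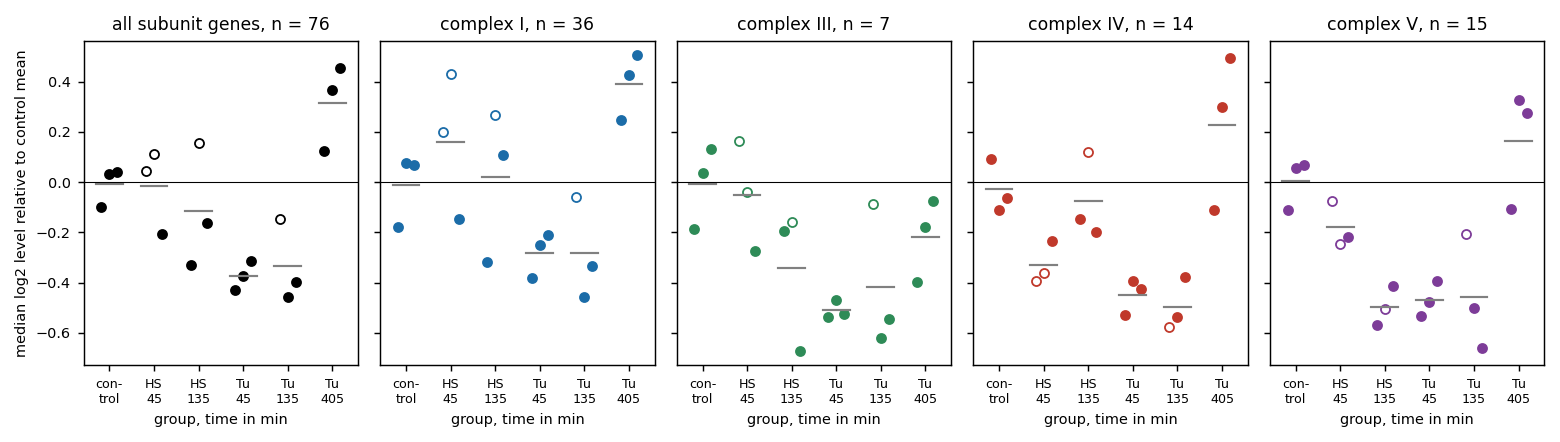
Median log2 level of the tested genes in each sample relative to the control mean, for all 76 genes and by complex, with 1 point per sample and a grey bar for the mean of 3. Open points are the 4 libraries whose levels rose with GC content. All 3 samples at 45 min of Tu lie below all controls in every panel, and over all 76 genes all 3 samples at 405 min lie above them.

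At 135 min of tunicamycin no OXPHOS gene passed the test in edgeR, where 0.134% of all genes did (0.126% higher and 0.00785% lower). At an unadjusted p under 0.05, 3 genes were higher and 20 lower, against 10.1% and 8.49% of all genes. The DESeq2 Wald test called 1 rise and 5 falls (1.32% and 6.58%, against 2.5% and 2.52% of all genes). The median log2 fold change was -0.26, with 56 of 76 genes below 0. The median gene stood at -0.15, -0.46 and -0.40 relative to the control mean in the 3 samples, the first being the library that follows GC content. Without that library the median of the fold changes was -0.37 and 1 gene was called, as a fall (1.32%, against 0.0943% of all genes).

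By 405 min of tunicamycin the median level scaled by TMM had moved above that of control cells, most of all in complex I. Against controls the median log2 fold change was 0.34 (all genes, -0.01), and 29 genes were called (38.2%, against 46.8% of all genes), with 25 up (32.9%, against 23.3% of all genes) and 4 down (5.26%, against 23.5%). Scaling by total counts in place of TMM changed this split to 19 up and 7 down. The median was 0.42 in complex I, 0.25 in complex IV, 0.20 in complex V and -0.17 in complex III. As a share of all RPKM the 82 genes were not above control, at 2.44% to 2.78% against 2.65% to 2.81%. Complex I took 0.791% to 0.880%, against 0.748% to 0.798% in controls. Complex V took 0.741% to 0.810%, below every control (0.868% to 0.915%). Of all reads, the 82 genes took 1.19% to 1.39%, against 1.19% to 1.26%. Complex I gave 15 of the rises and 1 fall among 36 genes, complex IV 4 rises and 3 falls among 14, complex V 2 rises among 15, complex III 1 rise among 7, and the 4 genes outside the complexes 3 rises. Without control replicate 1 there were 39 rises and 9 falls (51.3% and 11.8%), against 31.6% and 30.5% of all genes in that fit. Without Tu replicate 2 there were 12 rises and 2 falls (15.8% and 2.63%, against 15.8% and 16.1%), and without Tu replicate 3 there were 12 rises and 3 falls (15.8% and 3.95%, against 16.1% and 16.6%). Of the 29 calls, 12 held in every alternative fit and in every fit without 1 sample, and these were Ndufa6, Ndufa8, Ndufab1, Ndufb9, Ndufs6, Cox5b, Cox6a2, Cox6b1, Atp5g2, Atp5s, Atp5sl and Ndufa4l2.

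The late and the early tunicamycin time were also compared directly. Against 45 min, 57 of 76 genes were higher at 405 min (75.0%, against 24.4% of all genes) and 1 was lower (1.32%, against 28.1%), with a median log2 difference of 0.60 where all genes had -0.06. The rises took in 31 of 36 genes of complex I, 11 of 14 of complex IV, 11 of 15 of complex V and 2 of 7 of complex III, where the only fall was found. None of the 4 libraries that follow GC content enters this comparison. The samples still differed in rho with GC, at -0.59, -0.48 and 0.03 at 45 min and -0.24, -0.06 and -0.05 at 405 min. The part of this difference in the rises was not tested. When any 1 sample was left out, 45 to 63 genes were called. Of the rises, 31 held in every alternative and every fit without 1 sample. Both comparisons of the 405 min samples use the same 3 libraries, and all comparisons with control share the 3 controls.

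**Figure D3:**
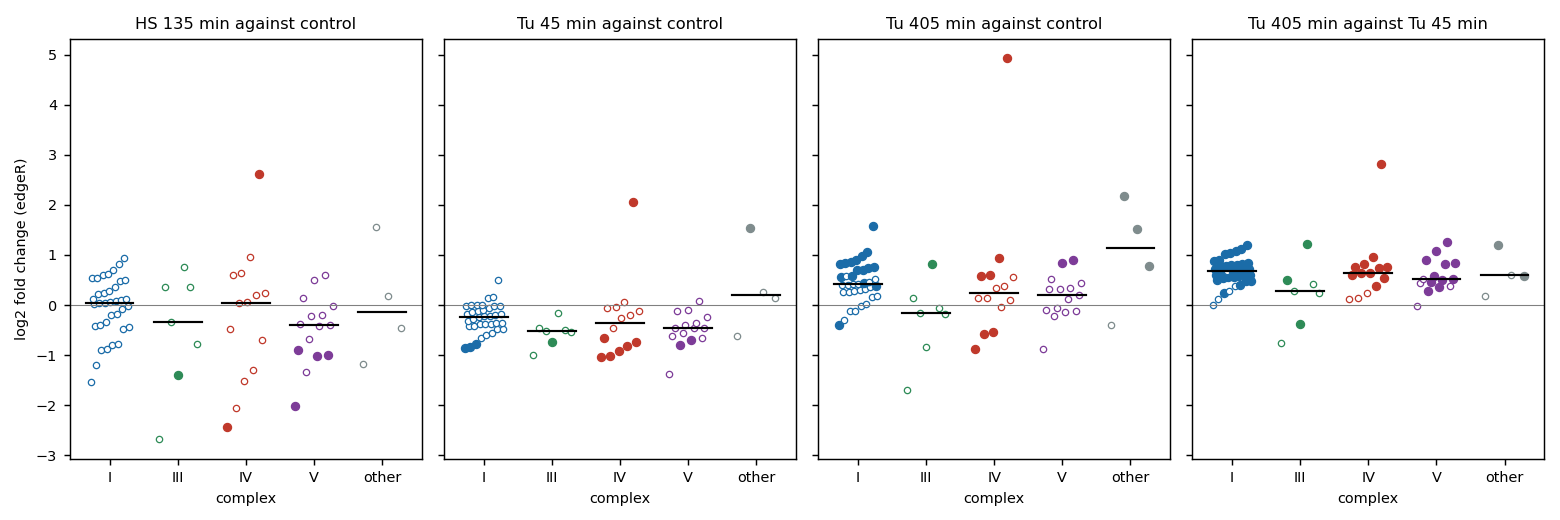
Log2 fold changes from edgeR of the 76 tested genes by complex in 4 comparisons, with filled points for an adjusted p under 0.05, open points for the rest and black bars for medians. Against 45 min of Tu, nearly all of complex I is filled and above 0 at 405 min, and the isolated point at 2.82 in complex IV is Cox6a2.

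In complex I, the core subunits Ndufv1, Ndufv2, Ndufs3, Ndufs7 and Ndufs8 rose between 45 and 405 min of Tu. The core carries electrons from NADH towards ubiquinone. Ndufs7, which holds the last cluster of that chain, measured 118, 122 and 141 CPM at 45 min of Tu and 223, 240.2 and 272 CPM at 405 min. The groups did not overlap, at a log2 fold change of 0.91 (standard error 0.112, edgeR adjusted p = 0.000263). Ndufv1, which binds NADH, changed less, at a log2 fold change of 0.40 (standard error 0.116, edgeR adjusted p = 0.0181), and Ndufs1 was not called, with 73.9, 72.1 and 56.5 CPM and 66.1, 72.5 and 70.1 CPM. Ndufs8 rose both against 45 min (0.61 on the log2 scale, edgeR adjusted p = 0.00293) and against control (0.39, adjusted p = 0.0411). The second call was lost in 9 alternative or reduced fits.

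Among the accessory subunits, Ndufs5 (chromosome 4 of mm9, 123389953 to 123395429) was the subunit with the lowest level, at 0.653, 1.73 and 2.54 CPM in the controls and 3.28, 5.04 and 6.26 CPM at 405 min of Tu. These groups did not overlap, at a log2 fold change of 1.58 (standard error 0.432, edgeR adjusted p = 0.0172), although a RefSeq pseudogene carries its name and the controls differed among themselves. Ndufa12 rose from 204, 226 and 206 CPM to 231, 284 and 332 CPM, at a log2 fold change of 0.44 (standard error 0.155, edgeR adjusted p = 0.0477), a call lost in 10 of the other fits. The 3 falls of complex I at 45 min of Tu were Ndufa2 (-0.86 on the log2 scale, edgeR adjusted p = 0.0463), Ndufa9 (-0.84, adjusted p = 0.0463) and Ndufb8 (-0.77, adjusted p = 0.0322). Each of these 3 calls was lost in 8 of 16 other fits. Ndufa9, which sits at the junction of the membrane and peripheral arms, was also the only fall of complex I at 405 min, from 138, 103 and 119 CPM in controls to 97.8, 82.7 and 87.4 CPM (-0.41 on the log2 scale, adjusted p = 0.0461). The call at 405 min was lost in 6 other fits.

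In complex III, 2 genes rose and 1 fell between the Tu times. Uqcrq (chromosome 11 of mm9, 53242450 to 53244333), a small subunit that helps hold the complex together, was measured at 194, 169.6 and 162 CPM in controls, 121, 128 and 131 CPM at 45 min and 249, 303 and 356 CPM at 405 min of Tu. Every sample at 405 min was above all samples of the other 2 groups, at a log2 fold change of 1.21 (standard error 0.136, edgeR adjusted p = 0.000156) against 45 min, and the log2 fold change against control was 0.81 (adjusted p = 0.00439). Uqcrh, the hinge protein that binds cytochrome c1, was the 1 gene that was lower at 405 min than at 45 min. It stood at 89.9, 95.2 and 91.7 CPM and then 57.4, 75.8 and 84.8 CPM, at a log2 fold change of -0.39 (standard error 0.144, edgeR adjusted p = 0.0485), but RefSeq names 2 pseudogenes of it, the controls ran from 60.7 to 181 CPM, and the call was lost in 9 other fits. Uqcrfs1, the Rieske iron-sulfur protein through which electrons reach cytochrome c1, fell at 45 min of Tu from 46.9, 54.8 and 58.6 CPM to 30.9, 32.7 and 31.2 CPM (-0.74 on the log2 scale, edgeR adjusted p = 0.0231). It was higher again at 405 min than at 45 min, at 0.50 (adjusted p = 0.00694). The scaffold subunits Uqcrc1 and Uqcrc2 were called in none of the comparisons.

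In complex IV, the falls of early tunicamycin treatment included subunits that surround the catalytic core. Cox6b1, which faces the intermembrane space and lies where the paired enzymes of the dimer meet, was at 271, 222 and 231 CPM in controls, 139, 105 and 105 CPM at 45 min of Tu and 122, 126 and 142 CPM at 405 min. All stressed samples were lower than all controls, at a log2 fold change of -1.04 (standard error 0.165, edgeR adjusted p = 0.0158) at 45 min, and at 405 min it was -0.87 (adjusted p = 0.00127). Cox7a2, the form of subunit VIIa found in most tissues, went from 104, 138 and 139.7 CPM to 65.9, 68.0 and 52.5 CPM at 45 min and 75.4, 85.5 and 90.7 CPM at 405 min, at a log2 fold change of -1.01 (standard error 0.174, edgeR adjusted p = 0.0208) at the first time and -0.57 (adjusted p = 0.0143) at the second. Cox7b, a small membrane subunit, fell by 0.83 on the log2 scale at 45 min (edgeR adjusted p = 0.0332) and by 0.55 at 405 min (adjusted p = 0.00583). Together with Ndufa9, these 3 were the falls at 405 min.

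Other complex IV subunits that fell early were not below control at 405 min by the test. Cox4i1, which binds the regulatory nucleotides of the enzyme, stood at 529, 395 and 423 CPM in controls, 260.3, 276 and 304 CPM at 45 min of Tu and 432, 497 and 539.8 CPM at 405 min. It fell at 45 min (-0.67 on the log2 scale, edgeR adjusted p = 0.0443) and was higher at 405 than at 45 min (0.76, adjusted p = 0.000728). Ndufa4 fell by 0.74 at 45 min (adjusted p = 0.0465) and was higher by 0.65 at 405 than at 45 min (adjusted p = 0.0160). Cox5b, which binds zinc on the matrix side, was 36.7, 29.5 and 29.0 CPM in controls and 45.7, 58.0 and 76.3 CPM at 405 min, at a log2 fold change of 0.94 (standard error 0.206, edgeR adjusted p = 0.00649). Cox8a rose from 411 ± 20.4 to 605 ± 95.7 CPM at 405 min (SD, n = 3, log2 fold change 0.58, edgeR adjusted p = 0.0140). Cox7a2l, which takes part in joining complexes III and IV, rose by 0.61 on the log2 scale (adjusted p = 0.0313), a call lost in 5 other fits.

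Cox5a, the matrix-side partner of Cox4i1, fell at 135 min of HS and at 45 min of Tu. It measured 234, 164 and 159.9 CPM in controls and 234, 311 and 134 CPM at 45 min of HS, and then 35.7, 33.2 and 34.6 CPM at 135 min. The 3 samples at 135 min of HS were alike and far below all controls, at a log2 fold change of -2.43 (standard error 0.224, edgeR adjusted p = 0.00580). The fall was also called without HS replicate 2, the library that follows GC content, but the call was lost without HS replicate 3. Under tunicamycin Cox5a had 110.3, 97.7 and 83.5 CPM at 45 min, 146, 84.0 and 60.0 CPM at 135 min and 137, 216 and 233 CPM at 405 min. The fall at 45 min was -0.92 on the log2 scale (edgeR adjusted p = 0.0382) and the rise from 45 to 405 min 0.96 (adjusted p = 0.00424). Directly compared at 135 min, HS was below tunicamycin by 1.51 on the log2 scale, which missed the threshold (adjusted p = 0.0648). With the 1 library of either group that follows GC content left out, the difference was -1.03 (adjusted p = 0.0105), with 2 samples a group.

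The largest rise in every comparison with a call of higher level was that of Cox6a2 (chromosome 7 of mm9, 135348949 to 135349880), the heart and skeletal muscle form of complex IV subunit VIa. It was low in controls, at 1.10, 0.804 and 0.915 CPM, and each stressed sample exceeded all 3 of them. It reached 3.74, 3.64 and 4.23 CPM at 45 min of Tu, at 135 min 2.88, 1.31 and 2.08 CPM and at 405 min 20.7, 29.3 and 34.1 CPM. The log2 fold changes were 2.06 (standard error 0.202, edgeR adjusted p = 0.00319), 1.16 (adjusted p = 0.153, not called) and 4.93 (standard error 0.257, adjusted p = 1.18e-05), and the difference between 405 and 45 min was 2.82 (standard error 0.197, adjusted p = 1.56e-05). Under HS it had 3.68, 4.92 and 1.99 CPM at 45 min and 3.08, 7.71 and 6.58 CPM at 135 min. The log2 fold change at 135 min was 2.62 (standard error 0.403, adjusted p = 0.0185), and at 45 min 1.91, which was not called (adjusted p = 0.227). The call at 135 min of HS was lost without control replicate 2, control replicate 3 or HS replicate 3. HS and tunicamycin at 135 min differed by 1.45 (adjusted p = 0.128), which was not called. Itgad, whose span overlaps that of Cox6a2, reached at most 0.315 CPM in any sample.

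Even at its highest, Cox6a2 remained the minor form beside Cox6a1, the form of most tissues. On the length-scaled measure, 405 min of Tu had 34.6 ± 7.66 RPKM of Cox6a2 and 973 ± 147 RPKM of Cox6a1 (SD, n = 3), against 1.22 ± 0.160 and 705 ± 146 RPKM in controls. Cox6a1 itself was called only between 405 and 45 min of Tu, with 508, 698 and 708 CPM after 318, 347 and 427 CPM, at a log2 fold change of 0.77 (standard error 0.157, edgeR adjusted p = 0.00349). Of the other muscle forms, Cox7a1 had 3 to 20 reads per sample and was called in none of the comparisons, and Cox8b had 0 reads in 15 of 18 samples. The HIF-inducible lung form Cox4i2 reached 5 reads at most.

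In complex V, the catalytic hexamer is built from the alpha and beta subunits. Atp5b went from 1496 ± 85.3 CPM at 45 min to 1863 ± 75.3 CPM at 405 min (SD, n = 3), at a log2 fold change of 0.27 (standard error 0.101, edgeR adjusted p = 0.0478), a call lost in 11 other fits. Atp5a1 had 655, 776 and 866 CPM and 850.4, 771 and 714 CPM and was not called. Atp5c1, the central stalk, rose by 0.36 on the log2 scale (edgeR adjusted p = 0.0202). The 2 falls of the complex at 45 min of Tu were Atp5e (-0.79, adjusted p = 0.0284), the epsilon subunit of the stalk, and Atp5j2 (-0.70, adjusted p = 0.0225), the f subunit in the membrane.

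The 3 genes of the c subunit, whose promoter windows are shown above, differed in level. In controls Atp5g3 was the major transcript, at 579 ± 37.1 RPKM, followed by Atp5g2 at 221 ± 46.6 and Atp5g1 at 22.0 ± 4.11 RPKM (SD, n = 3), without overlap between them. Atp5g1 (chromosome 11 of mm9, 95934107 to 95936945) had 26.1, 17.4 and 18.8 CPM in controls, 14.4, 15.0 and 17.3 CPM at 45 min and 27.2, 40.7 and 47.0 CPM at 405 min of Tu. It rose by 1.26 on the log2 scale between these times (standard error 0.194, edgeR adjusted p = 0.000862) and by 0.90 against control (standard error 0.239, adjusted p = 0.0149). Atp5g2 measured 134, 174 and 192 CPM in controls, 154, 151 and 149 CPM and 227, 302 and 351 CPM. It rose by 0.91 (adjusted p = 0.00139) and 0.84 (adjusted p = 0.00917) in the same comparisons. Atp5g3 had 458, 488 and 434 CPM, 311, 307 and 383 CPM and 324, 600.4 and 555 CPM, with groups that overlapped. Its log2 difference between 405 and 45 min was 0.52 (adjusted p = 0.0656). It was not called here but was called in 8 of 16 alternative or reduced fits, and whether the 3 genes differed in their change was not tested. Across the tested OXPHOS genes with a window, the median log2 difference between 405 and 45 min was 0.68 in the 15 with NRF1 letters and 0.60 in the 48 without. For the YY1 letters these medians were 0.60 in 18 and 0.60 in 45 genes. Whether the letters have a part in the level or the change of any gene was not tested.

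**Figure D4:**
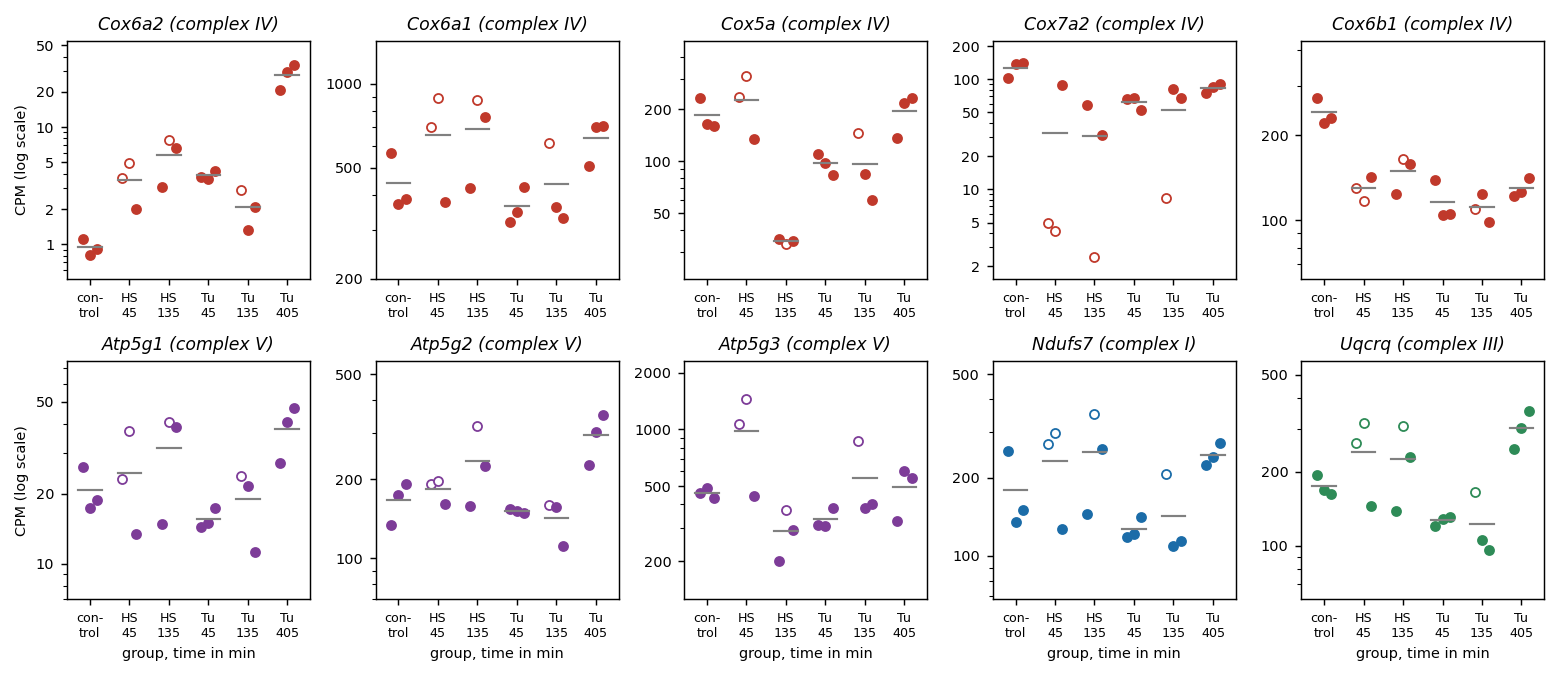
CPM on a log axis of 10 genes in every sample, with 1 point per sample and grey bars for means of 3. Open points mark the 4 libraries whose levels rose with GC content. Cox6a2 in stressed samples lies above all controls and peaks at 20.7 to 34.1 CPM at 405 min of Tu, Cox5a at 135 min of HS sits at 33.2 to 35.7 CPM, and Cox7a2 drops below 10 CPM only in the open points.

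Under HS at 45 min, no OXPHOS gene passed the edgeR test, nor did any gene of the genome (0%). At an unadjusted p under 0.05, 7 were higher and 5 lower, against 12.3% and 7.16% of all genes. The DESeq2 Wald test and edgeR's exact test each called 1 rise and 1 fall (1.32% each). Of all genes, 3.03% rose and 0.511% fell by DESeq2, and 1.97% and 0.306% by the exact test. The median log2 fold change was -0.01 (all genes, -0.03). The replicates differed, as the median gene stood at 0.04, 0.11 and -0.21 relative to the control mean, the first and second being libraries that follow GC content. Without those 2 the median was -0.18 with 0 calls, but only 1 HS sample then remained and the spread came from the controls alone. Without replicate 3 there were 15 rises and 16 falls (19.7% and 21.1%), against 21.5% and 23.9% of all genes in that fit.

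At 135 min of HS the calls gathered in complex V. The test called 7 genes (9.21%, against 7.39% of all genes), of which 1 rose (1.32%, against 4.75%) and 6 fell (7.89%, against 2.64%), with a median log2 fold change of -0.02 (all genes, -0.02). By complex, the median was -0.40 in complex V, -0.34 in complex III, 0.05 in complex IV and 0.05 in complex I, and the falls took in 4 of 15, 1 of 7, 1 of 14 and 0 of 36 tested genes. In complex I, 2 genes were higher and 6 lower at an unadjusted p under 0.05. The falls of complex V were Atp5l, Atp5f1, Atp5j2 and Atp5e, of which the first 3 belong to the membrane part and peripheral stalk of ATP synthase. Atp5l was at 145, 55.8 and 56.4 CPM in controls and 28.7, 21.3 and 13.3 CPM at 135 min of HS, at a log2 fold change of -2.02 (standard error 0.458, edgeR adjusted p = 0.0401). The first control lay far above the other 2, and without it the log2 fold change was -1.40 and not called. Atp5j2 had 159, 191 and 188 CPM and 112, 74.5 and 84.1 CPM, at a log2 fold change of -0.99 (standard error 0.219, edgeR adjusted p = 0.0380). Atp5e went from 50.9 ± 6.33 to 27.4 ± 4.03 CPM (SD, n = 3, log2 fold change -0.89, edgeR adjusted p = 0.0480). Atp5f1 fell by 1.02 (adjusted p = 0.0415), but its span overlaps Wdr77, which was at 139 to 155 CPM in controls and 23.6 to 82.9 CPM in these samples, and reads of both could be mixed. In complex III, Uqcrfs1 fell from 46.9, 54.8 and 58.6 CPM to 24.8, 15.1 and 20.6 CPM, without overlap, at a log2 fold change of -1.41 (standard error 0.247, edgeR adjusted p = 0.0215).

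The calls at 135 min of HS were not stable to the loss of a sample. Without HS replicate 2, which follows GC content, 1 rise and 9 falls were called (1.32% and 11.8%, against 5.71% and 4% of all genes). Without HS replicate 1 there were 7 rises and 9 falls (9.21% and 11.8%, against 12.1% and 7.32%), without HS replicate 3 none, and without control replicate 2 or 3 there was 1 fall. In the last 3 of these fits, at most 15 of all genes were called. Directly compared at 135 min, HS and tunicamycin differed in no OXPHOS gene by edgeR, where 2.12% of all genes did (1.3% higher and 0.817% lower under HS). At an unadjusted p under 0.05, 10 were higher and 9 lower under HS, against 10.2% and 9.75% of all genes. DESeq2 called 5 higher and 4 lower (6.58% and 5.26%, against 5.62% and 4.25% of all genes). With the library of each group that follows GC content left out, 11 genes were higher and 2 lower under HS (14.5% and 2.63%), against 6.79% and 5.25% of all genes in that fit.

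Of the genes outside the complexes, Atp5s rose at 405 min of Tu, from 1.56, 1.23 and 1.49 CPM to 3.48, 4.20 and 4.32 CPM, at a log2 fold change of 1.51 (standard error 0.192, edgeR adjusted p = 0.000502). It also rose against 45 min, by 1.21 (adjusted p = 0.000339). Atp5sl rose by 0.77 (adjusted p = 0.00448) against control and by 0.59 (adjusted p = 0.00431) against 45 min. Ndufa4l2, a relative of Ndufa4 known from hypoxic cells, was low, at 5 to 56 reads per sample. It had 0.126, 0.232 and 0.137 CPM in controls, 0.550, 0.450 and 0.466 CPM at 45 min and 0.583, 0.723 and 1.01 CPM at 405 min of Tu, called at 1.53 (adjusted p = 0.0345) and 2.19 (adjusted p = 0.00161). Its span overlaps Shmt2, at 630 to 772 CPM in controls and 1407 to 1490 CPM at 405 min, so stray reads of Shmt2 cannot be told apart from its own. Cox4nb was called in none of the comparisons.

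Other genes of mitochondrial respiration were counted beside these, where 24.4% of all genes rose and 28.1% fell between 405 and 45 min of Tu, and 23.3% rose and 23.5% fell at 405 min against control. Between 405 and 45 min of Tu, complex II gave 2 rises among its 4 genes (Sdhb and Sdhc), and cytochrome c (Cycs), cytochrome c1 (Cyc1) and Usmg5 rose among 4 carriers and subunits outside the name rule. Of 27 assembly factors tested, 14 rose and 0 fell, with Cox18, which helps insert a complex IV subunit into the inner membrane, at a log2 fold change of 1.17 (standard error 0.146, edgeR adjusted p = 0.000276). Against controls at 405 min, 13 assembly factors rose and 1 fell (Ndufaf1), and complex II split into 1 rise (Sdhb) and 2 falls (Sdha and Sdhd). Sdhd was also lower at 45 min of Tu, with 49.1 ± 3.23 against 106 ± 8.06 CPM (SD, n = 3, log2 fold change -1.09, edgeR adjusted p = 0.00681), and at 135 min of HS (-1.20, adjusted p = 0.0226).

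Of 12 regulators of mitochondrial biogenesis, 4 rose and 2 fell between 45 and 405 min of Tu (33.3% and 16.7%, against 24.4% and 28.1% of all genes), which is near the background. The rises were Tfam and Tfb2m, which serve transcription of mitochondrial DNA, Tfb1m, and the nuclear receptor gene Esrra. The falls were the coactivator genes Ppargc1a and Ppargc1b. Ppargc1a had 14.9 ± 3.24 CPM in controls, 30.9 ± 5.02 at 45 min and 11.9 ± 1.37 at 405 min of Tu, and 45.9 ± 6.22 at 135 min of HS (SD, n = 3). It rose at 45 min of Tu (1.07 on the log2 scale, edgeR adjusted p = 0.0302) and at 135 min of HS (1.62, adjusted p = 0.0185) and was lower at 405 than at 45 min of Tu (-1.43, adjusted p = 0.000141).

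Ribosomal protein genes were counted as a comparison. Between 45 and 405 min, 75 of 84 cytosolic ribosomal protein genes rose and 0 fell (median log2 difference 0.78), as did 59 of 75 mitochondrial ribosomal protein genes with 1 fall (0.61), beside 57 of 76 OXPHOS genes with 1 fall (0.60). At 45 min of Tu the medians were -0.27, -0.20 and -0.37, and at 405 min 0.49, 0.43 and 0.34, each against control.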

How the data were processed

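The authors isolated poly(A) RNA, sequenced it on Illumina instruments, aligned the reads to the mm9 assembly and, on the DNAnexus platform, analysed them against RefSeq (aligner and counter are not given in the sources used here). They deposited, per gene and sample, an estimated count, an RPKM, a score standardized over genes and a signal scaled by root mean square. Per the files, 23.9% to 27.1% of estimated counts below 100 were not whole (tolerance 1e-06). The deposited RPKM is the authors' read level scaled to gene length and depth. Score and signal columns as deposited were not used.

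Estimated counts were rounded and tested with edgeR 4.0.16 (R 4.3.3), using the quasi-likelihood test, TMM and Benjamini-Hochberg adjustment over 12731 genes, those without a count of 0 in any of the 18 samples, at a threshold of 0.05. The study's methods name edgeR, removal of genes with zero counts and this threshold, but not the quasi-likelihood test. The standard error is the fold change divided by the root of F, and CPM was scaled by TMM over all samples. RPKM was used for levels between genes. The OXPHOS genes and all gene lists were chosen with earlier results of these data known. Genes named were the 3 largest rises and falls per comparison (called, groups not overlapping, at least 50 reads on average in the higher group), core subunits, isoform families, and the highest and lowest gene per complex. Others were named after their values were seen, and 1 gene is counted but not reported here by name.

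Alternatives were 2 other filters, DESeq2 size factors, total counts, edgeR's exact test, DESeq2 1.42.0, one model for all 6 groups, a block for replicate number, an offset for GC content of GENCODE transcripts on the same assembly (by lowess, for 96.6% of genes), leaving out each sample, and, added after the data were seen, leaving out libraries that follow GC content. Same-numbered samples deviated together in every pair only for 135 min of Tu against control (r = 0.275, 0.213 and 0.175), where the numbers came from the labels and 0 OXPHOS genes were called with or without the block. No 2 replicates were alike enough to be 1 library. Counts allow floors for counting error only. Of the genes, 11 overlap another gene and 10 have named pseudogenes, and strand was not stated. Python 3.11.15 was used.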

Additional observations from a re-analysis of the deposited data

Results flagged for a closer look

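Some results were picked out because the effect of tunicamycin differed between 405 and 45 min by a direct test of the 2 groups in edgeR. They are the 58 OXPHOS genes called, of which 57 were higher at 405 min, and among them Cox6a2 (log2 difference 2.82), Atp5g1 (1.26), Uqcrq (1.21) and Uqcrh (-0.39). Cox6a2, Atp5g1 and Uqcrq were called in every alternative and every fit without 1 sample, whereas Uqcrh was not. Groups of 3 samples were not searched for single outlying samples.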

How the results depend on the processing

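The number of OXPHOS genes called depended on the fit. At 45 min of HS the count of 0 became 2 with edgeR's exact test, 2 with DESeq2 and 3 with a fit of all 6 groups. Of all 12731 genes, 290, 451 and 1345 were called in these fits, against 0 in the fit used above. Without 1 sample the count was 0 to 31 (all genes, 0 to 5786). The median became -0.18 with total counts and -0.18 without replicates 1 and 2. At 135 min of HS the count of 7 became 11 with total counts, 14 with the exact test and 14 with DESeq2. It was 17 with the shared fit and 13 with the GC offset. Of all genes, 941 were called in the fit used above, and 924, 1985, 2159, 3243 and 2438 in these. Without 1 sample the count was 0 to 16 (all genes, 11 to 2467). At 45 min of Tu the count of 14 became 23 with DESeq2, 5 with the shared fit and 25 with the GC offset. Of all genes, 786 were called in the fit used above, and 1843, 632 and 1920 in these. Without 1 sample the count was 1 to 34 (all genes, 58 to 2499). The median became -0.26 with total counts. At 135 min of Tu the count of 0 became 5 with the exact test, 6 with DESeq2, 3 with the shared fit and 3 with the GC offset. Of all genes, 17 were called in the fit used above, and 547, 639, 411 and 220 in these. Without 1 sample the count was 0 to 1 (all genes, 0 to 61). At 405 min the count of 29 (all genes, 5960) became 17 with the shared fit (4057) and 14 to 48 without 1 sample (4067 to 7897). Between HS and Tu at 135 min the count of 0 became 1 with total counts, 8 with the exact test and 9 with DESeq2. It was 8 with the shared fit, 6 with the GC offset and 13 without the 2 libraries that follow GC content. Of all genes, 270 were called in the fit used above, and 484, 933, 1256, 1771, 1235 and 1533 in these. Without 1 sample the count was 0 to 1 (all genes, 0 to 364). Between 405 and 45 min the count of 58 (all genes, 6684) became 31 with the shared fit (3428) and 45 to 63 without 1 sample (5065 to 7407). The median became 0.44 with total counts. Other alternatives without the block kept each count within 1.5 times. The causes were not tested.

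With a block for replicate number, the count was 0 at 135 min of HS and 3 when the GC offset was added. It was 0 at 45 min of Tu, 28 at 405 min and 60 between 405 and 45 min. Of all genes, 0, 625, 21, 5270 and 6931 were called in these fits. Other counts moved by less than 1.5 times. Outside 135 min of Tu, the samples share only a number, since same-numbered samples did not deviate together in every pair (r from -0.74 to 0.34).

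Total counts in place of TMM shifted the median of all genes to -0.19 at both HS times, 0.10 at 45 min and -0.11 at 405 min of Tu, -0.18 between the stresses and -0.21 between the Tu times, so the medians above are to be read against these. For the single genes named, 576 of 690 results under alternative fits of all samples stayed on their side of the threshold. With 1 sample left out this held for 276 of 417, and 136 calls were lost. None changed direction. Leaving out 1 sample from a group of 3 also lowers the power of the test. Depth limits Cox7a1 and the untested genes, which had at most 20 reads per sample.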
